A study of Mus musculus with 2 samples.

Results

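The chromogranin and secretogranin family was followed across single cells of pancreatic tumours from 2 transgenic mouse groups. The 7 members, chosen by gene symbol, were Chga, Chgb, Scg2, Scg3, Scg5, Vgf and Resp18, of 32285 genes listed in the count matrices. EL1 tumours came from EL1-Luc/EL1-Tag mice, an FVB/N line that carries SV40 large T antigen and firefly luciferase, each under a pancreatic elastase I promoter, which is active in acinar cells. WTg tumours came from a cross of EL1 with CAG-Mettl3 mice, so that these animals also carry the coding region of Mettl3, driven by CAG, a promoter active in most tissues. Both groups were 6 weeks old, and each gave 1 library. The number of animals pooled in a library and their sex were not stated. The CAG-Mettl3 line was made from eggs of BL/6 mice, so strain background and transgene cannot be told apart. With 1 library per group no difference was tested, and all intervals are 95% intervals of counting error only.

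Granins are acidic proteins of the dense-core secretory granules of endocrine and neuroendocrine cells. They aggregate as the granule forms, and several are cleaved by prohormone convertases into peptides such as those from chromogranin A. In normal pancreas they mark islet cells, while acinar cells store digestive enzymes in zymogen granules. Chga, Chgb, Scg2 and Vgf encode such cargo proteins. Scg3 encodes an adaptor that links chromogranin A to the granule membrane, and Scg5 encodes 7B2, a chaperone of the convertase Pcsk2. Resp18 encodes an endocrine protein related to the luminal part of the granule protein Ptprn.

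The genes lie apart in the GRCm38 genome. Chga (ENSMUSG00000021194) spans chr12:102554969-102565028, Chgb (ENSMUSG00000027350) chr2:132781278-132795079 and Vgf (ENSMUSG00000037428) chr5:137026392-137033351, all on the plus strand. Scg2 (ENSMUSG00000050711, chr1:79434669-79440120), Scg3 (ENSMUSG00000032181, chr9:75643189-75684056), Scg5 (ENSMUSG00000023236, chr2:113776362-113829121) and Resp18 (ENSMUSG00000033061, chr1:75272199-75278415) are on the minus strand. Scg3 overlaps Gm37871 and Resp18 overlaps Gm28902, each on the opposite strand.

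Granin promoters are known for cyclic AMP response elements (CREs), so the members' promoters were searched for the element TGACGTCA and its half-site TGACG on both strands. RefSeq's table (GRCm38.p6) held a promoter of 300 bases, 250 of them before the start, for 6 of 7 members. The full element was found in Chgb and Scg2, and the half-site in 5 of 6, with none in Resp18. Among all 32851 promoters of that table, 1.79% held the full element and 20.8% the half-site, which every full element contains. The 30 bases around the site are shown, 5′ to 3′ on the gene's strand, for the pair of genes with the full element, one abundant and one nearly absent in these cells, and for the half-sites of Chga and Scg3. Capitals mark the element or half-site. It begins 72 bases before the RefSeq start in Chgb (chr2:132781559-132781588, plus strand), 68 in Scg2 (chr1:79440076-79440105, minus strand), 44 in Chga (chr12:102554885-102554914, plus strand) and 30 in Scg3 (chr9:75684069-75684098, minus strand). For Chgb and Scg2 these bases lie within the gene spans given above, which come from GENCODE and begin further upstream than the RefSeq starts.
Chgb: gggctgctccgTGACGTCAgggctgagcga
Scg2: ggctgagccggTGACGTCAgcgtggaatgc
Chga: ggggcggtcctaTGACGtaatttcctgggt
Scg3: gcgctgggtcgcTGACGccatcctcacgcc
A match of letters says nothing of a factor's binding.

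The EL1 library held 1621 barcodes and 39171674 UMIs, and the WTg library 1488 barcodes and 34871992 UMIs, where a UMI counts 1 captured RNA molecule. Filters on genes, UMIs and mitochondrial share kept 1113 EL1 cells, with a median of 26543 UMIs, and 905 WTg cells, with a median of 34836. The libraries had 15 barcode sequences in common, none of them among kept cells. Mettl3, the check on the labels, was at 15.1 CPM (13.9 to 16.4) in EL1, where CPM is the UMIs of a gene per 1000000 UMIs of the same cells, and 66.7 (63.9 to 69.5) in WTg. Digestive enzymes of a list of 20 made up 15.6% of all UMIs in EL1 and 17.2% in WTg.

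Summed over the kept cells, the members did not differ in one direction between the libraries: Chga and Resp18 were lower in WTg, and Chgb, Vgf, Scg5, Scg3 and Scg2 were higher. Chga was at 3559.9 CPM (3541 to 3579) in EL1, from 135139 UMIs, and at 2134 CPM (2118 to 2150) in WTg, from 70434. On the log2 scale WTg was −0.74 against EL1 (−0.75 to −0.73). Chgb was at 189 CPM (185 to 194) in EL1 and 267 (261 to 272) in WTg, which was 0.50 (0.45 to 0.54) as the log2 ratio of WTg to EL1. Vgf was at 184 CPM (179.6 to 188) and 238 (232 to 243), for which it was 0.37 (0.32 to 0.42). Of these cargo genes, Chga was thus lower and the others higher in WTg. Scg2 had no UMI in EL1, where 3 counts would be 0.0790 CPM, and 23 UMIs in 16 WTg cells, or 0.697 CPM (0.442 to 1.05). With EL1 set to 3 counts, WTg was 8.82-fold higher. The counting interval of the log2 ratio began at 2.72.

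Scg3 and Scg5, the genes of the adaptor and the convertase chaperone, were each higher in WTg. Scg3 was at 12.5 CPM (11.4 to 13.7) in EL1, from 474 UMIs, and at 26.2 CPM (24.5 to 28.01) in WTg, from 865, which gave 1.07 (0.91 to 1.23) as log2 ratio. Scg5, with 1612 and 2763 UMIs, was at 42.5 CPM (40.4 to 44.6) and 83.7 (80.6 to 86.9), which gave 0.98 (0.89 to 1.07). Resp18 went the other way, at 31.9 CPM (30.1 to 33.7) in EL1, from 1210 UMIs, and at 8.97 CPM (7.97 to 10.0) in WTg, from 296, which gave −1.83 (−2.02 to −1.65). Of the 6 members with at least 50 UMIs, 1 (Scg3) was at least 2-fold higher in WTg and 1 (Resp18) at least 2-fold lower, while 6.85% of the 13467 genes so measured were higher and 4.59% lower. The median log2 ratio was 0.43 over the members and −0.15 over all those genes.

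**Figure D1:**
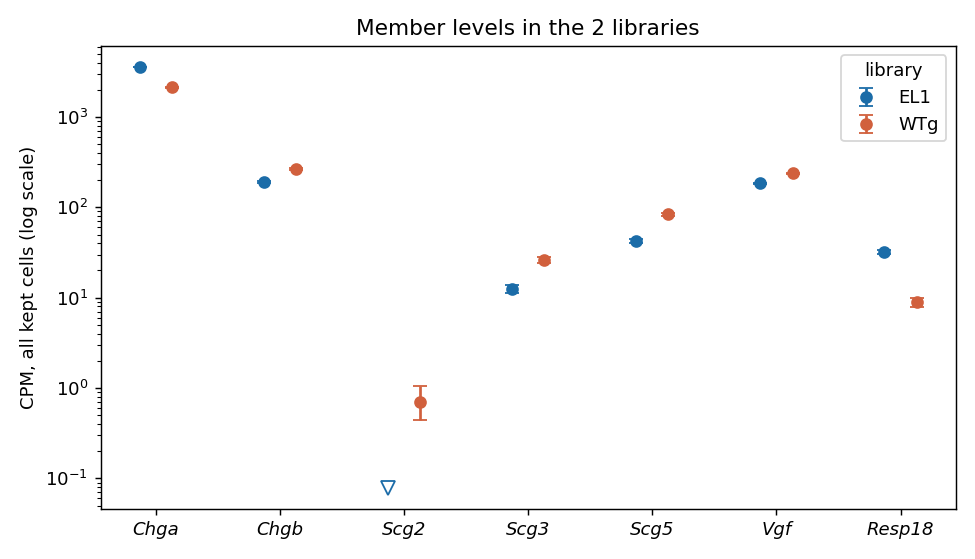
CPM over all kept cells of each library (vertical, log scale) for the 7 members, with exact Poisson intervals, most of them narrower than the point. The open triangle marks the level that 3 counts would give, since Scg2 had no UMI in EL1. Chga and Resp18 are lower in WTg and the other members higher.

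Chga RNA was not limited to a few cells. After each cell was thinned to 2000 UMIs, to set depth equal, a Chga UMI was found in 62.4% of EL1 cells (656 of 1051; 59.4 to 65.4) and in 59.4% of those of WTg (497 of 836; 56.0 to 62.8). Thinning left out 62 EL1 and 69 WTg cells that were shallower; without it the shares were 83.0% and 74.5%. Immune cells, which should lack the gene, gave the background, with median depths of 6881.5 UMIs in 50 EL1 cells and 8161 in 67 WTg cells. Of thinned immune cells, 10 of 47 in EL1 (21.3%, 10.7 to 35.7) and 1 of 60 in WTg (1.67%, 0.0422 to 8.94) had a Chga UMI. The background share was thus higher in the EL1 library, and its part in the difference between the libraries was not tested. In CPM, Chga was at 91.6 (69.0 to 119) in EL1 immune cells and 15.3 (8.91 to 24.5) in WTg immune cells, and each other member had 3 or fewer UMIs there.

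The remaining members were detected in fewer cells. Among thinned cells Chgb had a UMI in 25.1% (22.5 to 27.9) in EL1 and 27.99% (24.97 to 31.2) in WTg, and Vgf in 23.9% (21.3 to 26.6) and 27.2% (24.2 to 30.3). These intervals of the libraries overlap for both genes. Scg5 was found in 8.75% (7.11 to 10.6) and 14.95% (12.6 to 17.6), and Scg3 in 2.66% (1.78 to 3.83) and 4.55% (3.24 to 6.19). Resp18 was found in 6.37% (4.97 to 8.03) and 2.15% (1.28 to 3.38). Scg2 was found in 0 of 1051 EL1 cells, where 3 counts would be a share of 0.285%, and in 2 of 836 WTg cells (0.239%, 0.0290 to 0.862). That limit is for cells with a UMI at this depth, not for cells that express the gene, and without thinning 1.77% of WTg cells had one.

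Expression within a library was uneven. The top 10% of cells held 50.2% of Chga UMIs in EL1 and 50.8% in WTg. Chga reached 10000 CPM or more, that is 1% of a cell's RNA molecules read, in 158 EL1 cells and 45 WTg cells, and the highest cell of each library was at 47207 and 30560.3 CPM. No Chga UMI was read in 189 EL1 and 231 WTg cells. Scg3 was spread differently in each library, with 81.9% of its UMIs in the top 10% of EL1 cells and 52.0% in those of WTg. For Resp18 it was 80.7% in EL1 and 98.99% in WTg, where 94 cells had any. Genes with few UMIs give high values by their sparseness alone. Scg3 and Resp18 each had the higher share in the library where their UMIs were fewer, and the part of sparseness was not tested.

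The kept cells fell into 17 clusters, made without the members, the listed genes or cell cycle genes. Tumour cells here are all kept cells outside the immune and haemoglobin-rich clusters. They include the unnamed cluster 7 (103 EL1 and 12 WTg cells), led by Igfbp7, Fabp4 and Sparc, with 2 of 7 endothelial markers (Egfl7 and Plvap). Most tumour clusters were nearly all from 1 library, so cluster and library cannot be told apart there. Cluster 6, the 1 cluster that met the fixed rule for a neuroendocrine-like name (10 of 22 markers, among them Insm1, Neurod1, Pcsk2, Syp and Ptprn), held 39 EL1 and 94 WTg cells and was led by alpha-1-antitrypsin genes (Serpina1a to Serpina1e). Cluster 0 held 235 EL1 and 3 WTg cells and stayed unnamed. Its leading genes by fold were Penk, the enkephalin precursor, Resp18, Tff3, Chga and Hdc, the histamine-forming enzyme. Chga and Resp18 stand among its defining genes even though they were not used to make it, so their height there is a description.

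In the neuroendocrine-like cluster Chga was at 11192 CPM (10994 to 11393) in EL1 and 7411 (7317 to 7505) in WTg, and in EL1 cluster 0 it was at 8739 (8672 to 8805). Against the other tumour cells of the same library, with immune and haemoglobin-rich clusters left out, all 6 members measured in both libraries were higher in the neuroendocrine-like cluster, as were 62.9% of the 11339 genes with at least 50 UMIs in each library. The log2 ratio of that cluster over the rest was 1.72 in EL1 and 2.20 in WTg for Chga, 1.98 and 2.16 for Chgb, 1.41 and 1.06 for Vgf, 1.41 and 1.10 for Scg5, and 1.49 and 1.58 for Scg3. For Resp18 it was 1.29 (0.95 to 1.61) in EL1, where cluster 0 is among the rest, and 3.09 (2.75 to 3.43) in WTg. Cluster 0 made up 21.1% of EL1 cells and held 49.4% of that library's Chga UMIs, 53.3% of its Chgb UMIs and 76.1% of its Resp18 UMIs.

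EL1 cluster 4 separated the family. Its 172 cells, led by Fst, the activin-binding follistatin, and holding Insm1, a regulator of endocrine differentiation, among the leading genes, had Chga at 4572 CPM (4516 to 4629) and a Chga UMI in 82.0% of thinned cells. Yet Scg3 was at 1.46 CPM there against 38.4 in cluster 0, a log2 ratio of −4.72 (−5.95 to −3.72). Resp18 was at 2.55 against 121 CPM, a log2 ratio of −5.57 (−6.44 to −4.81), and Scg5 at 14.7 against 129 CPM, −3.12 (−3.47 to −2.80). Chga and Vgf differed much less between these clusters, by −0.93 (−0.96 to −0.91) and −0.89 (−0.98 to −0.79) on the log2 scale, and Chgb by −1.79 (−1.90 to −1.68). Low Scg3 and Resp18 were not particular to this cluster. In EL1 cluster 2 they were at 0.906 and 1.36 CPM. There Chga and Vgf were also much lower than in cluster 0, by −3.08 and −2.68 on the log2 scale. Cluster 4 thus held the cargo genes Chga and Vgf with little RNA of the adaptor, the chaperone or Resp18.

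A cluster of WTg cells differed from that pattern. Cluster 1, with 220 WTg cells led by trypsinogen genes (Prss1) and Sycn, a zymogen granule protein, had Chga at 2360.0 CPM (2330.3 to 2390.0), Scg3 at 29.1, Scg5 at 96.0 and Resp18 at 2.75. Against the neuroendocrine-like cells of the same library Scg5 was −0.80 (−0.95 to −0.65) on the log2 scale and Scg3 −1.21 (−1.46 to −0.95), less of a gap than for Chga at −1.65 (−1.68 to −1.62). The gap for Resp18 was −4.01 (−4.65 to −3.42). Resp18 was therefore at under 3 CPM in both of these abundant Chga-positive clusters, 1 of each library, where Scg3 and Scg5 were at different levels.

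Among the remaining clusters Chga varied widely. The mitotic or histone-rich clusters 8 (96 EL1 cells) and 11 (84 WTg cells) had Chga at 2796 and 2316 CPM, and Vgf at 165 and 427. The acinar-like clusters of WTg, 12 with 83 cells and 3 with 168, had Chga at 1248 and 406 CPM, and the EL1 cluster 2 led by S100g and trypsinogens, with 183 cells, had it at 1032. The median cell of cluster 2 was at only 90.1 CPM and that of cluster 3 at 12.2, so a minority of cells carried those sums. In EL1 cluster 13, led by the gastric proton pump gene Atp4b, Chga was at 133 CPM and in 14.7% of thinned cells, and in cluster 7, led by Igfbp7 and Sparc, it was at 402 CPM and in 16.8%. Both shares lie below that of EL1 immune cells but within its wide interval (10.7 to 35.7%), while the summed levels lie above the 91.6 CPM of those cells. Some cells of both clusters were above 1000 CPM, and the part of background in these clusters was not tested. The median cell was at 18.3 CPM in cluster 13 and 25.1 in cluster 7. The haemoglobin-rich cluster 5, with 83 EL1 and 80 WTg barcodes and a median of only 1958 UMIs, had Chga at 1946 and 1775 CPM, which red blood cells should lack.

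**Figure D2:**
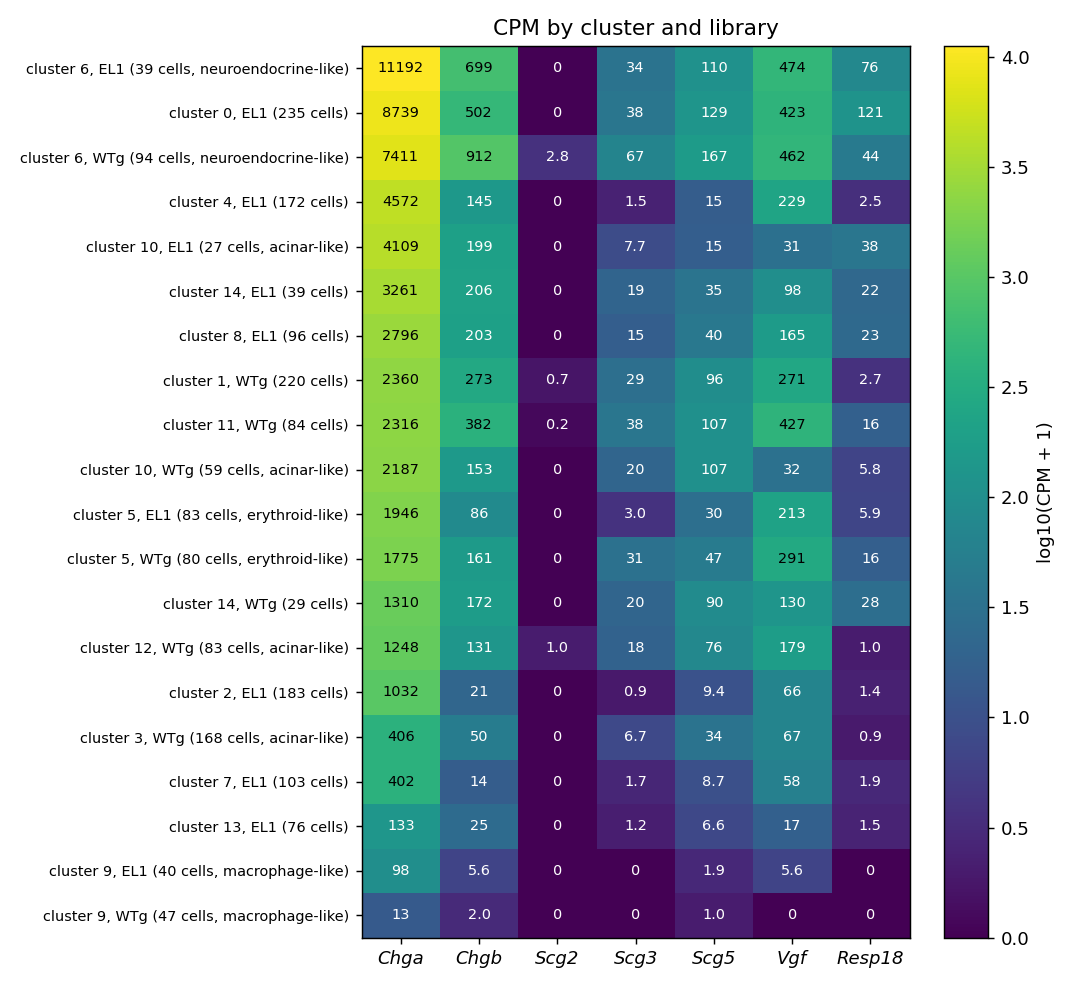
CPM of each member in the 20 sums of a cluster and a library with at least 20 cells, ordered by Chga; colour is log10(CPM + 1) and the printed number is the level itself. Cluster 4 of EL1 stands among the highest sums for Chga at 4572, with Scg3 at 1.46, and the macrophage-like sums are lowest, at 97.9 and 13.2.

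Scg2 was read in 16 WTg cells of several clusters, 6 of them in cluster 1, 4 in the neuroendocrine-like cluster and 3 in cluster 12. Each had Chga, from 945 to 8655 CPM. These cells were deep, with a median of 67837.5 UMIs, and 1 of them gave 6 of the 23 UMIs. In the neuroendocrine-like cells Scg2 was at 2.77 CPM in WTg, and in EL1 it had 0 UMIs over 39 cells. Chgb, whose promoter holds the same element, was at 912 and 699 CPM in these cells.

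Tumour cells often held Chga and acinar enzymes at once. With immune and haemoglobin-rich clusters left out, 469 of 980 EL1 cells (47.9%, 44.7 to 51.0) had Chga at 1000 CPM or more together with an acinar share of 5% or more, and so did 344 of 758 WTg cells (45.4%, 41.8 to 49.0). Their median Chga level was 5149 CPM in EL1 and 2786 in WTg, and their median acinar share was 11.3% and 13.9%. High Chga with an acinar share under 5% was seen in 88 EL1 and 48 WTg cells, and an acinar share of 5% or more with Chga under 1000 CPM in 386 and 353. In EL1 the joint cells were not deeper than the acinar cells with low Chga, with a median of 28011 against 33033.5 UMIs. In WTg they were deeper, at 41911 against 37238. In both libraries the joint cells were deeper than cells with high Chga and an acinar share under 5%. The latter had a median of 18524 UMIs in EL1 and 26635.5 in WTg. The doublet caller marked 2 and 1 of the joint cells. The acinar share was 0.174% in the median EL1 immune cell and 0.185% in the median WTg immune cell, and 0 of 50 and 0 of 67 immune cells met the joint cut. In the haemoglobin-rich cluster 5, which was left out, 23 of 83 EL1 and 10 of 80 WTg barcodes met it, at an acinar share of 12.1% and 8.41% of their summed UMIs, so barcodes with another cell type's RNA also meet this cut. The part of such mixing in the joint cells was not tested.

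Within these tumour cells each member that was read was lower in each higher bin of the acinar share, over 1 to 5%, 5 to 20% and over 20%. Chga was at 7235, 4399.5 and 1111 CPM in EL1 (115, 614 and 241 cells) and at 8179.5 (8026.5 to 8335), 2736 and 668 CPM in WTg (47, 431 and 266 cells). Since enzyme UMIs lower every other CPM, the levels were also taken with those UMIs out of the total, and were then 7486, 4998 and 1528 CPM in EL1 and 8451, 3170.1 and 919 CPM in WTg. With enzyme UMIs out of the totals, 6 of the 6 members with at least 50 UMIs were lower in each higher bin in both libraries, as were 50.8% of 11909 genes in EL1 and 58.9% of 11516 in WTg. The lowest of the bins was then 4.90-fold above the highest for Chga in EL1 and 9.20-fold in WTg, 15.2-fold and 10.1-fold for Chgb, 5.20-fold and 5.77-fold for Vgf, 20.4-fold and 4.13-fold for Scg3, 10.5-fold and 3.17-fold for Scg5 and 30.9-fold and 29.5-fold for Resp18, while the median gene was at 1.22-fold and 1.43-fold. In the lowest and the highest of these bins Scg5 was at 102 and 7.36 CPM in EL1 and at 209.8 and 49.7 in WTg. Chgb was at 501 and 24.7 CPM in EL1 and at 1014 and 75.6 in WTg, and Scg3 at 28.8 and 1.06 and at 68.4 and 12.4. The rank correlation across cells of Chga with the acinar share, enzyme UMIs out of the total, was −0.40 in EL1 (980 cells) and −0.54 in WTg (758 cells); the cells of a library share their depth and free RNA.

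Among cells with an acinar share under 1%, 83.9% in EL1 and 83.7% in WTg were in immune or haemoglobin-rich clusters, so that bin was not read with the tumour cells.

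**Figure D3:**
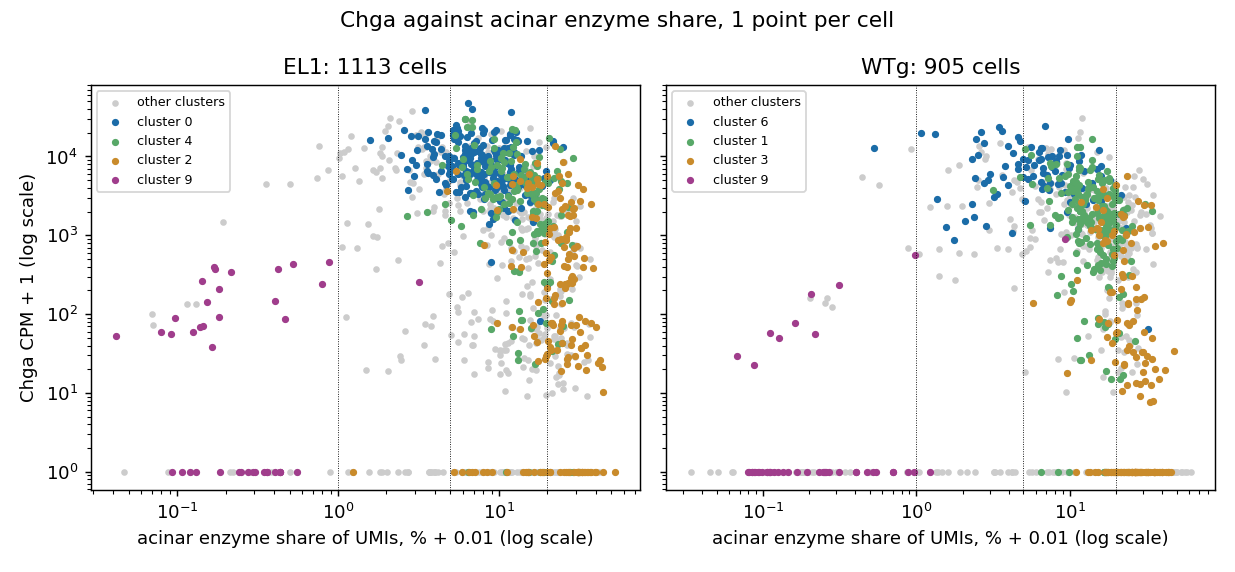
Chga CPM + 1 against the acinar enzyme share of UMIs + 0.01%, both log scales, 1 point per kept cell (1113 EL1, 905 WTg); dotted lines are at 1, 5 and 20%, and points at the bottom have no Chga UMI. Cells of EL1 cluster 0 and WTg cluster 6 sit high at shares mostly of 5 to 20%, cells over 20% spread over the whole range, and macrophage-like cells (cluster 9) sit low on both axes.

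Most cells with another member had Chga as well, where 62.4% of all thinned EL1 cells and 59.4% of those of WTg had it. In thinned EL1 cells a Chga UMI was found in 253 of 264 cells with Chgb (95.8%), 238 of 251 with Vgf (94.8%), 89 of 92 with Scg5 (96.7%), 28 of 28 with Scg3 and 66 of 67 with Resp18. In WTg it was found in 218 of 234 with Chgb (93.2%), 201 of 227 with Vgf (88.5%), 106 of 125 with Scg5 (84.8%), 37 of 38 with Scg3 and 18 of 18 with Resp18. The reverse did not hold, and Chga was the single member read in 258 of 656 EL1 cells (39.3%) and 145 of 497 WTg cells (29.2%). Chgb and Vgf were read together in 126 EL1 cells and 106 WTg cells, or 47.7% and 45.3% of the cells with Chgb. At 3 or more members stood 19.1% of EL1 and 21.4% of WTg cells, and 1 WTg cell had 6.

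**Figure D4:**
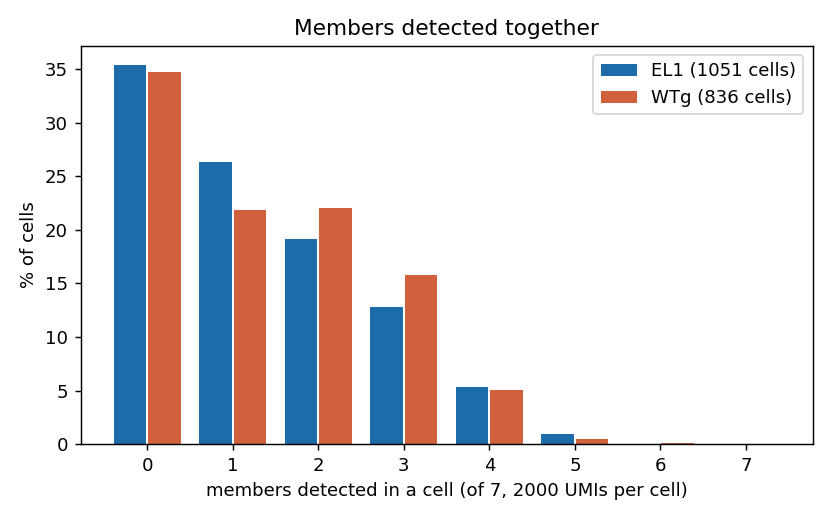
Share of thinned cells (vertical, %) by the number of the 7 members with a UMI (horizontal) in EL1 (1051 cells) and WTg (836 cells). No member was read in 35.4% and 34.7% of cells, and the bars decline from 1 or 2 members to 5.

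Relative to Chga, which was itself lower in WTg, Chgb, Vgf, Scg5 and Scg3 were higher in WTg, as were most genes. Over all kept cells there were 53.1 Chgb UMIs per 1000 Chga UMIs in EL1 and 125 in WTg, 51.7 and 111 of Vgf, 11.9 and 39.2 of Scg5, and 3.51 and 12.3 of Scg3. Over all kept cells, 90.8% of 13467 genes were higher in WTg per Chga UMI, with a median log2 ratio of 0.59, against 1.23 for Chgb, 1.11 for Vgf, 1.72 for Scg5 and 1.81 for Scg3. In the 4 non-macrophage clusters with at least 20 cells of both libraries (5, 6, 10 and 14), this ratio was higher in WTg in 4 of 4 for Chgb, Vgf, Scg5 and Scg3, with a counting interval above 0 on the log2 scale in 3 of 4 for each. The counts of direction are near the background. Of the genes with at least 50 UMIs in a cluster, 66.3% were higher in cluster 5 and 89.4% in cluster 6. In clusters 10 and 14 the shares were 81.4% and 98.1%. No such share was taken for the intervals. Some members fell under 50 UMIs there. Scg3 had 1 UMI in EL1 and 8 in WTg in cluster 5, and 1 and 7 in cluster 10. In cluster 10 Scg5 had 2 and 37 UMIs, and Vgf 4 and 11. Cluster 5 is the haemoglobin-rich one. In neuroendocrine-like cells Chgb went from 62.5 to 123 per 1000 (log2 ratio 0.98, 0.86 to 1.10), Vgf from 42.3 to 62.3 (0.56, 0.41 to 0.70), Scg5 from 9.78 to 22.5 (1.20, 0.92 to 1.503) and Scg3 from 3.04 to 9.07 (1.58, 1.07 to 2.12). The median of all genes there was 0.50, which is within the interval of Vgf. Resp18 per Chga was higher in WTg in 2 of 4 clusters and lower over all cells, at 8.95 and 4.20 per 1000.

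**Figure D5:**
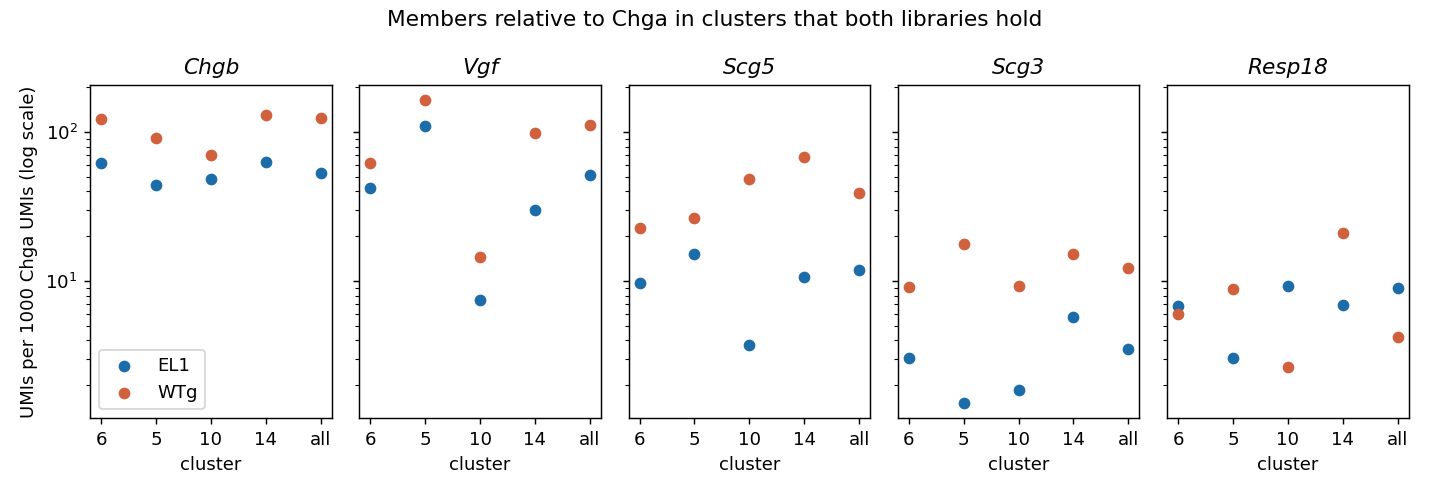
UMIs of 5 members per 1000 Chga UMIs (log scale) in clusters 6 (neuroendocrine-like), 5 (haemoglobin-rich and shallow), 10 (acinar-like and shallow), 14 (immediate early genes) and over all kept cells. Each WTg point lies above its EL1 point for Chgb, Vgf, Scg5 and Scg3, while Resp18 points change order between clusters; most other genes were also higher per Chga UMI, 90.8% of them over all cells.

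In the neuroendocrine-like cluster alone, the library differences were smaller in size than over all cells for each of the 6 members. This did not hold for every member under other clusterings or with each cell weighted equally. With equal weights Scg3 was at 1.22 in this cluster and 0.99 over all cells, Chgb at 0.23 and 0.19, and Vgf at −0.057 and 0.045. Chga had a log2 ratio of WTg over EL1 of −0.59 (−0.63 to −0.56), Chgb of 0.38 (0.27 to 0.50), Scg3 of 0.98 (0.47 to 1.53), Scg5 of 0.61 (0.32 to 0.91), Vgf of −0.04 (−0.18 to 0.11) and Resp18 of −0.78 (−1.18 to −0.38). None of the 6 members with at least 50 UMIs was past 2-fold in either direction, while 3.24% of 8050 genes were higher in WTg and 2.19% lower. The median log2 ratio was 0.17 over the members and −0.10 over all those genes. The value for Resp18 turned to 1.13 and 0.82 under other clusterings, and that for Chgb to −0.57 and −0.02, so the direction of those genes in this class rests on which cells are put in it. At resolution 2 the value was −1.42 for Chga and −2.80 for Resp18, larger in size than over all cells.

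The differences over all cells moved when cluster 0 was left out, toward 0 for Chga and Resp18 and away from 0 for Scg3, Scg5, Chgb and Vgf. Without its 238 cells the log2 ratio of Chga was −0.09 and that of Resp18 −0.08, while that of Scg3 was 2.13, Scg5 2.00, Chgb 1.27 and Vgf 0.94. These values leave out almost only EL1 cells.

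Among the genes that work with the granins, prohormone processing genes past 2-fold were all higher in WTg. Of the 6 prohormone processing genes, 2 were at least 2-fold higher in WTg over all cells (median log2 ratio 0.67), and of 5 measured in neuroendocrine-like cells 3 were (median 1.12), with none lower. Among all genes measured in neuroendocrine-like cells, 3.24% were higher and 2.19% lower. Pcsk2, the convertase that Scg5 protein serves, went from 62 UMIs (1.63 CPM) to 1159 (35.1 CPM) over all cells, and from 37.7 to 197 CPM in neuroendocrine-like cells, a log2 ratio of 2.38 (1.93 to 2.88). Pcsk1, its sister convertase, was at 10.1 and 39.8 CPM in those cells (1.97, 1.09 to 3.01), and Pcsk1n, which encodes the Pcsk1 inhibitor proSAAS, at 16.6 and 36.1 CPM (1.12, 0.40 to 1.93). With 11 and 18 UMIs in EL1, Pcsk1 and Pcsk1n counted as measured there through their 129 and 117 UMIs in WTg. Such a count leans to genes high in WTg. Pcsk2 is also among the markers that named the class, and these genes were not compared under other clusterings.

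Genes of the granule membrane and of release differed less: of 14 measured over all cells, 2 were higher, Ptprn, a granule membrane protein, and Snap25, a SNARE protein, with none lower (median 0.09), and of 12 in neuroendocrine-like cells 0 were past 2-fold (median 0.14). Among peptide and amine cargo genes, Ghrl and Gal were higher and Penk, Ppy and Hdc lower over all cells, of 7 measured (median −0.77). In neuroendocrine-like cells Gal, the galanin precursor, was at 24.8 CPM in EL1 and 129.8 in WTg (log2 ratio 2.39, 1.82 to 3.004), Hdc at 138 and 25.9 (−2.41, −2.82 to −2.02) and Penk at 53.4 and 33.6 (−0.67, −1.14 to −0.18). With Ddc, which was also higher, 2 of 4 measured were higher and 1 lower (median 0.24).

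Among endocrine regulators, Insm1 was lower over all cells, at 41.8 CPM in EL1 and 17.6 in WTg (log2 ratio −1.25, −1.39 to −1.11), and was the 1 gene of 6 past 2-fold (median 0.10). In neuroendocrine-like cells none of 4 was past 2-fold (median −0.57), with Insm1 at −0.61 (−0.97 to −0.25) and Neurod1, a basic helix-loop-helix factor of islet cells, at −0.85 (−1.64 to −0.04). Rest, the repressor of neuronal and granin genes, was at 30.5 and 34.8 CPM over all cells (0.19, 0.07 to 0.31). Of the 20 acinar enzymes, 8 were higher and 0 lower over all cells (median 0.43), and in neuroendocrine-like cells 8 of 17 were higher (median 0.57).

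Over the 20 sums of a cluster and a library, the members' levels, on the scale of log2(CPM + 10), were most alike between Scg3 and Scg5 (Pearson's r 0.93) and between Chga and Chgb (0.91), and least between Vgf and Resp18 (0.56). Of 11052 genes, those most like Chga were Mapk8ip1, Rundc3a and Gnptg (0.94 to 0.95), and those most like Chgb were Sez6l2, Ambp and Aplp1 (0.92 to 0.95). For Scg3 they were Syt5, Serpina1c and Scg5 (0.93 to 0.94), and for Scg5 Upb1, Vsig2 and Serpina1c (0.95 to 0.96). Vgf was most like Kcnk3, Nefm and Ncam1 (0.94 to 0.95). Resp18 had looser matches, with Wnt4, Serpinf2 and Plvap at 0.86. With 1 CPM added in place of 10, only 1 of the 3 genes named stayed for Scg3, and 1 for Scg5. For Chga, Chgb, Vgf and Resp18, 2 of the 3 stayed. The sums share 2 libraries and differ in depth.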

How the data were processed

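The deposited UMI counts, which fill a matrix of genes and barcodes, were made by the authors with Cell Ranger 6.0.2 (per the file headers) from 10x 3′ libraries, with GRCm38 named in the submitters' processing notes. The members and gene lists were chosen with earlier results of these data known. Kept barcodes had 500 or more genes, 1000 or more UMIs and a mitochondrial share of no more than 20%. Scrublet called 2 EL1 and 3 WTg doublets, which were kept. Cells were clustered with scanpy 1.11.5 and leidenalg 0.10.2 (2000 variable genes, 30 components, 15 neighbours, resolution 1) without members, listed genes, Mettl3, Plk1 and the cell cycle lists of Seurat 5.3.0. A name needed 3 fixed markers with a log2 fold of at least 1 in at least 10% of cells, more than any other class, and 1 in the top 10 genes. UMI sums were given as CPM with exact Poisson intervals, ratios with exact conditional binomial intervals and shares with Clopper-Pearson intervals, at 95%. For ratios to Chga, Chga counts were taken as exact. A sum of 0 was set to 3 counts for a ratio. Genes past 2-fold, and the shares of all genes given beside members, were counted among genes with at least 50 UMIs. Named genes were the members, Pcsk1, Pcsk2, Pcsk1n, Insm1, Rest, the 3 highest and 3 lowest pathway genes in neuroendocrine-like cells, and the 3 genes with at least 200 UMIs most like each member; others past 2-fold were named after their values were seen, as were the cluster pairs compared and the 1000 CPM line for Chga. Alternatives were other filters, scalings, clusterings and depths (edgeR 4.0.16 for TMM). In a simulation of the comparison over all kept cells (13467 genes), 194 of 200 genes changed by 1 on the log2 scale came back within 0.5 with the right sign. Its counts were drawn with Poisson error alone, without spread between cells or animals. It therefore checks the calculation only. Positions came from GENCODE M21, matched for 32235 of 32285 gene IDs. The deposited dense count tables were not used. The result of 1 gene of the acinar list is not reported here.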

Additional observations from a re-analysis of the deposited data

Results flagged for a closer look

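Members were also read in barcodes outside the cell filter, which no comparison used: 508 in EL1, of which 393 had over 20% mitochondrial UMIs, and 583 in WTg, of which 440 did. Each value is above the limit that a count of 0 allows. Chga was at 2232 CPM (2148 to 2317) in the EL1 barcodes and 973 (929 to 1019) in the WTg barcodes. Chgb was at 79.3 and 66.0 CPM, Scg3 at 4.13 and 9.66 (5 and 18 UMIs), Scg5 at 16.5 and 22.5, and Resp18 at 16.5 and 4.83 (20 and 9 UMIs). Vgf was at 231 CPM (204 to 259) in EL1 and 193 (174 to 214) in WTg, above its 184 CPM in kept EL1 cells and below its 238 CPM in kept WTg cells, while Chgb, Scg3 and Scg5 were under their level in kept cells in both libraries. Per 100 UMIs of the trypsinogen gene Prss2, Vgf was at 3.53 in removed EL1 barcodes and 0.968 in kept EL1 cells, and Chga at 34.2 and 18.7. In WTg the values were 2.74 and 1.56 for Vgf and 13.8 and 13.97 for Chga.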

How the results depend on the processing

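No paired analysis was possible because EL1 and WTg each have a single library. No library could be left out and the spread between animals is unknown, so depth bounds counting error alone. Every log2 ratio of a member between the libraries kept its direction under the filters, scalings and sets of cells tried, 62 values in all. TMM scaling moved the median of all genes by 0.15 (0.10 in neuroendocrine-like cells) and gave −0.59 for Chga, 0.65 for Chgb, 1.13 for Scg5 and 0.52 for Vgf, and −0.49 for Chga in neuroendocrine-like cells. With each cell weighted equally the ratios were −0.93 for Chga, 0.19 for Chgb, 0.68 for Scg5, 0.045 for Vgf and −2.07 for Resp18, and in neuroendocrine-like cells −0.77 for Chga and 0.23 for Chgb. Chga was at −0.76 over all deposited barcodes, −0.83 with over 200 and under 10000 genes per barcode (Chgb 0.41) and −0.71 with acinar UMIs left out of totals. Chosen after seeing the data, leaving out immune and haemoglobin clusters gave −0.72 for Chga, and leaving out cluster 0 gave −0.090 for Chga, 1.27 for Chgb, 2.13 for Scg3, 2.00 for Scg5, 0.94 for Vgf and −0.084 for Resp18.

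The neuroendocrine-like class changed most with the clustering, since other cells then took the name (39 EL1 and 94 WTg cells as reported, 24 and 183 at resolution 0.5, 29 and 155 at resolution 2, 23 and 182 with listed genes kept). Resolution 0.5 gave 0.21 for Chgb, 1.11 for Scg5 and a turned direction for Resp18 at 1.13. Resolution 2 gave −1.42 for Chga, −0.57 for Chgb (turned), 0.037 for Scg5, −0.52 for Vgf and −2.80 for Resp18. Listed genes kept in clustering gave −0.83 for Chga, −0.022 for Chgb and 0.82 for Resp18, the latter pair turned.

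The share of cells with Chga was 57.6% in EL1 and 50.4% in WTg at 1000 UMIs per cell, 70.7% and 68.2% at 5000, and 83.0% and 74.5% without thinning. Cells with 3 or more members made up 4.28% and 2.63% when 2 UMIs were needed, and 34.4% and 43.2% at 5000 UMIs per cell. The log2 ratio of Chga in the highest over the lowest acinar bin, the latter mostly immune cells, was 0.0195 in EL1 and 0.93 in WTg. With acinar UMIs out of totals it was 0.47 and 1.39, and by quartiles within each library, where fewer immune cells fill the lowest bin, −2.50 and −3.04. With 10 UMIs in place of 50, 10.1% of genes were at least 2-fold higher and 6.90% lower over all cells. In neuroendocrine-like cells 7.05% were then higher and 5.82% lower. With 200 UMIs, 4.22% were higher and 2.96% lower over all cells, and 2.04% and 1.03% in neuroendocrine-like cells.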
